A study of Homo sapiens with 24 samples.

Results

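The genes described here are 9 cell cycle brake genes measured in a pair of inflammatory breast cancer cell lines treated with CG-1521: the CDK inhibitors CDKN1A, CDKN1B, CDKN1C, CDKN2A, CDKN2B and CDKN2D, and the stress-response genes GADD45A, GADD45B and GADD45G. They were chosen by gene symbol alone, 9 of the 18417 genes with a probe set that carried a single symbol, and each was read from 1 probe set. The 24 arrays (Affymetrix Human Gene 1.0 ST, log2 values) covered SUM149PT and SUM190PT, each with 4 groups of 3 arrays from separate experiments, after 48 h of treatment. The groups were vehicle (ethanol and DMSO), 10 nM 17β-estradiol, CG-1521, which the series title names as a histone deacetylase inhibitor, and estradiol with CG-1521. SUM149PT received 7.5 µM of CG-1521 in medium with serum, and SUM190PT received 5 µM after its serum had been taken away, so that the lines also differ in dose and in medium. The labels give both lines as ER(-), and p53 as mutated, M237I in SUM149PT and Q317X in SUM190PT.

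CDK inhibitors hold back the kinases that drive cells into and through the division cycle. The CIP/KIP proteins, encoded by CDKN1A (p21), CDKN1B (p27) and CDKN1C (p57), bind cyclin and kinase complexes of several kinds, whereas the INK4 proteins, encoded by CDKN2A (p16), CDKN2B (p15) and CDKN2D (p19), bind the kinases CDK4 and CDK6 that act on the retinoblastoma protein. The GADD45 proteins are small stress-induced proteins that bind PCNA, CDK1 and the kinase MAP3K4 and are named for growth arrest and DNA damage. CDKN1A and GADD45A are classical targets of p53, and CDKN1A is also known to rise with histone deacetylase inhibitors through GC boxes near its start, the sites that SP1 and SP3 bind.

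Promoters of some of the genes whose levels the results turn on are shown for that reason, from RefSeq (GRCh38.p14), as the 250 bases before the start of transcription. A window was at hand for 7 of the 9 genes, CDKN2A with 2 windows. None was at hand for GADD45A and CDKN1C. The CDKN1A window lies at chr6:36678464-36678713 on the plus strand, that of CDKN2B at chr9:22009306-22009555 on the minus strand, that of CDKN2D at chr19:10568980-10569229 on the minus strand and that of GADD45G at chr9:89604762-89605011 on the plus strand. Capitals mark matches on either strand to the GC box, searched as GGGCGG, and to the box searched as CCAAT.
CDKN1A: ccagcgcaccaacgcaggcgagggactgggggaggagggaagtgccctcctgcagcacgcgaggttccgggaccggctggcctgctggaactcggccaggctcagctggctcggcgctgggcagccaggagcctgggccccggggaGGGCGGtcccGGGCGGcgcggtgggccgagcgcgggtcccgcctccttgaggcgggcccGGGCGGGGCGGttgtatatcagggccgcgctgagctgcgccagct
CDKN2B: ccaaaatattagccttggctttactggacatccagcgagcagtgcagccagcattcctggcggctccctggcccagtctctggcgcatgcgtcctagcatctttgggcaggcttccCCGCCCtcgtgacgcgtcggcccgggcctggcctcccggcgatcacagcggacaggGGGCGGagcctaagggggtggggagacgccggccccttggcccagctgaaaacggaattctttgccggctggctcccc
CDKN2D: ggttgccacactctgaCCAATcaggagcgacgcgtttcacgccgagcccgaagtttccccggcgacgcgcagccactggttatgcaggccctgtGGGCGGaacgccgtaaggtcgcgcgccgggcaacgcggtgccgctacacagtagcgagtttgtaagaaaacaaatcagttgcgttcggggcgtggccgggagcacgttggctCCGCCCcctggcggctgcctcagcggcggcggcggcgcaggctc
GADD45G: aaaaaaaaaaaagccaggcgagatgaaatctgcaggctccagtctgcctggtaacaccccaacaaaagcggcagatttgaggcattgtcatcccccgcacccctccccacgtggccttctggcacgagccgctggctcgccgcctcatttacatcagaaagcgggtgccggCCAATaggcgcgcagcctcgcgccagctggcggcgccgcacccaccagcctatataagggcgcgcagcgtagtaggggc
CDKN1A held 4 GC boxes, with first bases 104, 94, 45 and 40 bases before the start, the last 2 of which share a base, and its window was 76.4% G and C. CDKN2B held 2 GC boxes (134 and 78 bases before the start) and CDKN2D held 2 GC boxes (156 and 44) and 1 CCAAT box (234). GADD45G held no GC box, 1 CCAAT box (79) and, not in capitals, 1 E-box CACGTG (143). CDKN1B held 1 GC box and 2 CCAAT boxes, GADD45B 2 CCAAT boxes and 1 CACGTG, and the CDKN2A windows 1 and 0 GC boxes. Of all 35116 windows of the same length, 42.6% held a GC box, 32.0% a CCAAT box and 6.34% CACGTG, and the median window was 58% G and C. These matches describe letters and were not tested against the expression values.

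Over all genes, arrays of a SUM149PT group correlated at 0.9946 to 0.996 and those of a SUM190PT group at 0.9807 to 0.9957, across genes. The third vehicle and the third estradiol array of SUM190PT stood apart: the median level of 5 proliferation genes was 7.27 and 7.16 there, against 8.88 to 9.29 on the other vehicle and estradiol arrays of that line. Without both of these arrays, 3 calls of the 9 genes within SUM190PT or between the lines were lost and 4 were gained, and each of these is given below with its value. The epithelial markers averaged 10.4 to 12.22 in the lines (5 of 5 genes), against at most 7.23 for 6 fibroblast, 5.52 for 4 leukocyte and 5.69 for 4 endothelial markers, and ESR1 averaged 4.79 in SUM149PT and 4.61 in SUM190PT, below the median gene's 6.13. In such bulk samples, fewer cells of a type and less RNA per cell cannot be told apart.

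CDKN1A and GADD45A rose with CG-1521 in both lines, and CDKN2B rose in SUM190PT, where its response was larger than in SUM149PT by the test of the difference. GADD45G passed in SUM149PT (0.58) and not in SUM190PT (0.73, adjusted p = 0.271; 1.21, adjusted p = 0.0034, without the arrays that stood apart), and its responses in the lines differed by −0.15 (SUM149PT minus SUM190PT, interval −1.13 to 0.83, adjusted p = 0.861). A change passed here when limma's adjusted p, over all 18417 genes, was under 0.05. In SUM149PT 4 of the 9 genes passed for CG-1521 against vehicle, 3 higher and CDKN1B lower, where 34.3% of all genes passed (14.4% higher, 19.9% lower). In SUM190PT 4 of 9 passed, 3 higher and CDKN2D lower, where 16.6% of all genes passed (8.32% higher, 8.26% lower; with median centring 66.4% of the calls were higher, in place of 50.2%). The median log2 difference of the 9 genes was 0.21 in SUM149PT and 0.32 in SUM190PT, beside −0.002 and −0.048 over all genes. In the presence of estradiol, CG-1521 with estradiol against estradiol alone, 3 of 9 passed in SUM149PT, all higher, where 36.9% of genes passed (16.5% higher, 20.4% lower), and 6 of 9 in SUM190PT, 5 higher and 1 lower, where 25.7% passed (12.5% higher, 13.2% lower). The combination against vehicle passed for 4 of 9 in SUM149PT, where 37.2% passed (16.2% higher, 20.9% lower), and for 3 of 9 in SUM190PT, all higher, where 13.4% passed (6.62% higher). The comparisons within a line share arrays, so their counts are not independent. Counted by arrays that did not overlap, CG-1521 and vehicle stood apart for 4 of 9 genes in SUM149PT (44.6% of all genes) and 4 of 9 in SUM190PT (31.5%), the combination and estradiol for 5 of 9 (46.8%) and 6 of 9 (45.6%), and the combination and vehicle for 7 of 9 (46.5%) and 4 of 9 (28.7%).

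**Figure D1:**
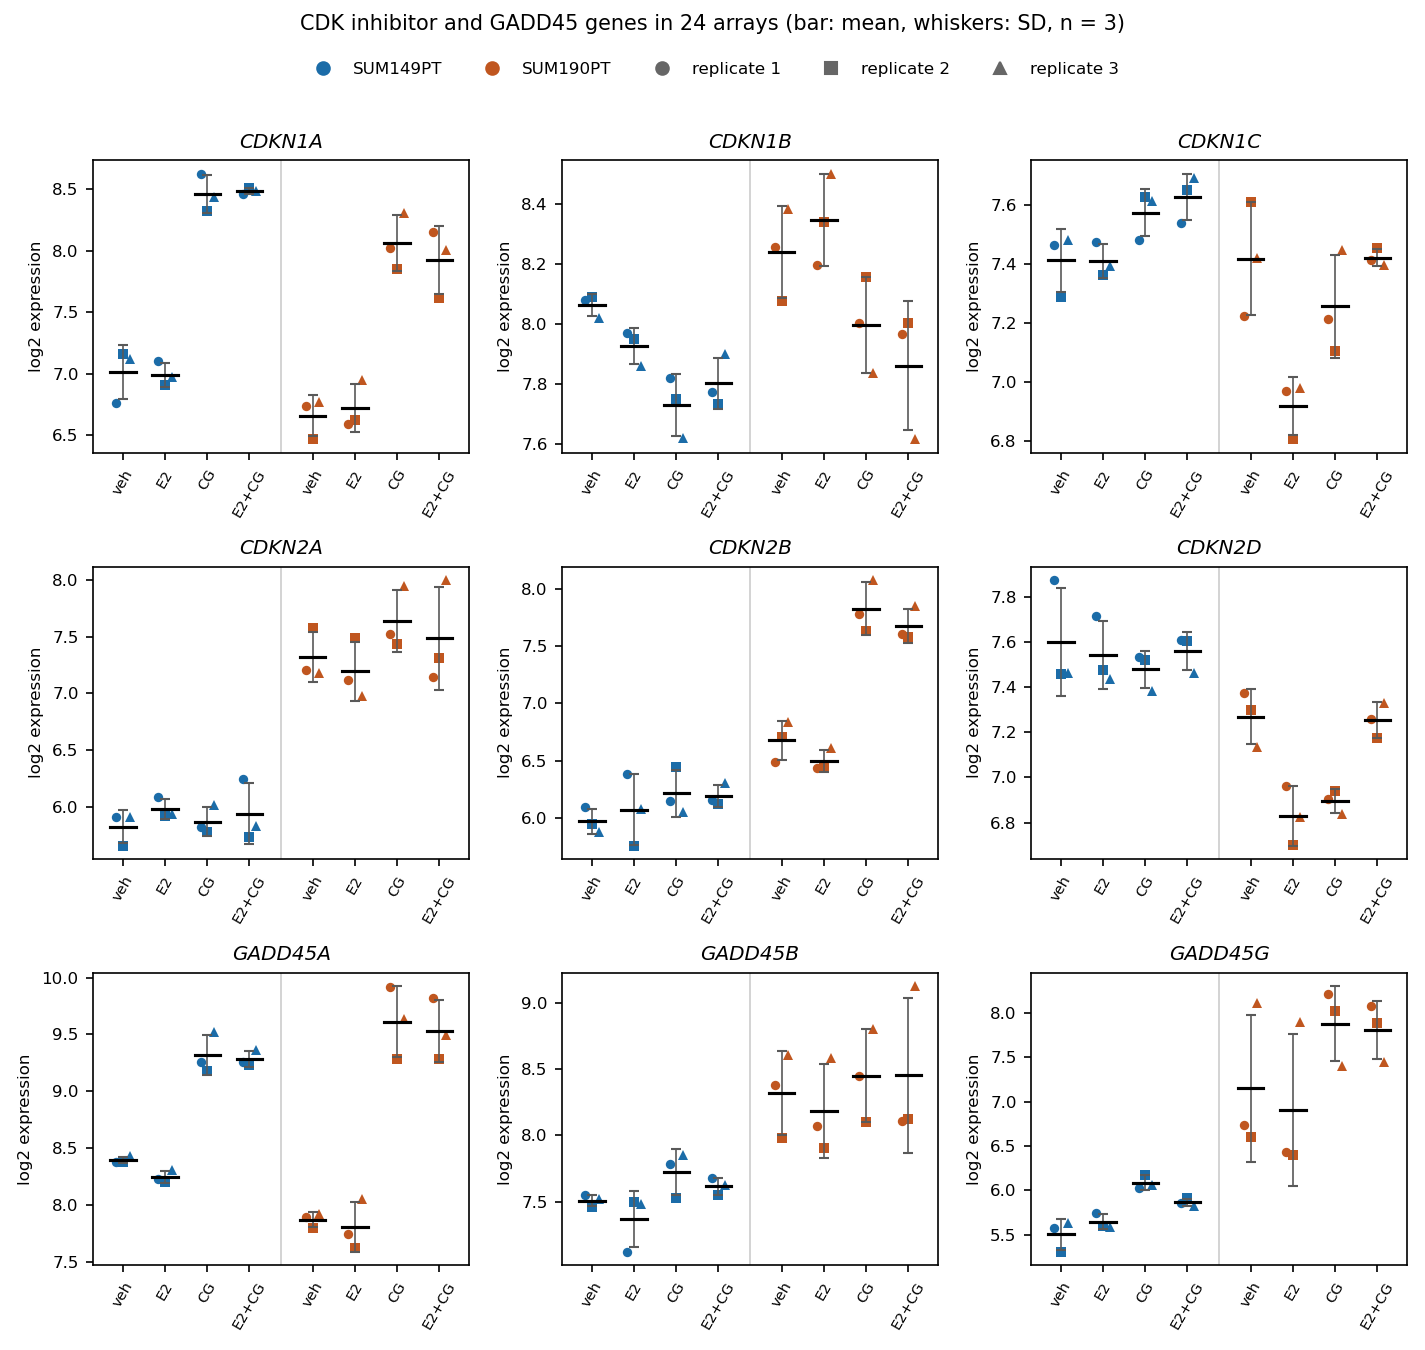
Log2 expression (y axis) of the 9 genes on every array, by group (x axis: veh, vehicle; E2, estradiol; CG, CG-1521; E2+CG, both), SUM149PT in blue and SUM190PT in orange, with symbols for replicates 1 to 3, bars for group means and whiskers for the SD (n = 3); each panel has its own axis. CDKN1A and GADD45A sit higher on every CG-1521 array than on every array without it in both lines, and CDKN2B does so in SUM190PT.

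CDKN1A (chromosome 6) encodes p21, the broad inhibitor of cyclin-dependent kinases. In SUM149PT its vehicle arrays read 6.76, 7.16 and 7.12, its estradiol arrays 7.10, 6.91 and 6.97, its CG-1521 arrays 8.63, 8.32 and 8.43, and its combination arrays 8.46, 8.51 and 8.49. All 6 arrays with CG-1521 lay above all 6 without it. The rise over vehicle was 1.45 (SE 0.108, adjusted p = 4.33e-08), or 2.72-fold, and with estradiol present it was 1.49 (adjusted p = 2.84e-08). In SUM190PT the vehicle arrays read 6.74, 6.47 and 6.77, the estradiol arrays 6.59, 6.62 and 6.95, the CG-1521 arrays 8.03, 7.85 and 8.30, and the combination arrays 8.15, 7.62 and 8.01. Here too the arrays with and without CG-1521 did not overlap. The rise was 1.40 (SE 0.166, adjusted p = 0.00019), or 2.64-fold, and 1.20 with estradiol present (adjusted p = 0.000429). Without the arrays that stood apart these were 1.46 (adjusted p = 0.000287) and 1.32 (0.000328). It was a large change in both lines, above the differences of 99.3% of genes in SUM149PT and 99.1% in SUM190PT. Ordered by mean, the levels ran from 8.49 in the SUM149PT combination and 8.46 in SUM149PT with CG-1521, whose arrays overlapped, through 8.06 in SUM190PT with CG-1521 and 7.93 in its combination group, to between 7.02 and 6.66 in the 4 groups without CG-1521, where each neighbour in the order overlapped the next.

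CDKN1B, which encodes p27 (chromosome 12), went the other way in SUM149PT. Its vehicle arrays read 8.08, 8.09 and 8.02, its estradiol arrays 7.97, 7.95 and 7.86, its CG-1521 arrays 7.82, 7.75 and 7.62, and its combination arrays 7.77, 7.74 and 7.90. Every CG-1521 array was below every vehicle array, and CDKN1B fell by 0.33 on the log2 scale (SE 0.079, adjusted p = 0.00333), or by 0.22 after quantile normalization (adjusted p = 0.0419). The combination was below vehicle by a difference of −0.26 (adjusted p = 0.016), which was −0.12 (adjusted p = 0.271) after quantile normalization and missed the threshold without the second combination array (adjusted p = 0.0648) or with all 24 arrays in the fit (0.0883). Against estradiol alone the difference was −0.12 (adjusted p = 0.247). In SUM190PT the vehicle arrays read 8.26, 8.08 and 8.38, the estradiol arrays 8.20, 8.34 and 8.50, the CG-1521 arrays 8.004, 8.16 and 7.84, and the combination arrays 7.97, 8.004 and 7.62. Only the combination against estradiol passed, at −0.48 (SE 0.139, adjusted p = 0.0239), with no overlap. It missed the threshold after quantile normalization (−0.34, adjusted p = 0.0904), without the second (0.0675) or the third estradiol array (0.0708), without the third combination array (0.0991), and without both arrays that stood apart (0.0619). The combination against vehicle gave −0.38 (adjusted p = 0.0963; 0.0169 with all 24 arrays in the fit). Over the 8 groups the means ran from 8.35 in SUM190PT with estradiol down to 7.73 in SUM149PT with CG-1521, and every neighbour in that order overlapped the next.

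CDKN1C, which encodes p57 and lies in the imprinted cluster of chromosome 11, moved little in SUM149PT. Its SUM149PT arrays lay between 7.29 and 7.48 without CG-1521 and between 7.48 and 7.69 with it. CG-1521 against vehicle gave 0.16 (SE 0.082, adjusted p = 0.15), which passed after quantile normalization (0.25, adjusted p = 0.0403). The combination was higher than estradiol by 0.22 (adjusted p = 0.0488), or by 0.33 after quantile normalization (0.00866). That call was lost with the replicate number as a block (adjusted p = 0.0588), with only the groups compared (0.0659), with all 24 arrays (0.123), with median centring (0.0746), and without the first (0.0513), second (0.14) or the third (0.113) estradiol array or the second (0.115) or the third (0.146) combination array. The combination against vehicle gave 0.22 (adjusted p = 0.0506), which passed after quantile normalization (0.34, 0.00698), without the dimmest 50% of genes (0.0236) and without the first combination array (0.0373). In SUM190PT the vehicle arrays read 7.23, 7.61 and 7.42, the estradiol arrays 6.97, 6.81 and 6.98, the CG-1521 arrays 7.22, 7.11 and 7.45, and the combination arrays 7.42, 7.46 and 7.40. The estradiol arrays were the lowest of the line and did not overlap any other group. The combination exceeded estradiol by 0.50 (SE 0.123, adjusted p = 0.0114; 0.0536 without the second estradiol array; 0.53, adjusted p = 0.0183, without the arrays that stood apart), whereas CG-1521 against vehicle was −0.16 (adjusted p = 0.40).

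**Figure D2:**
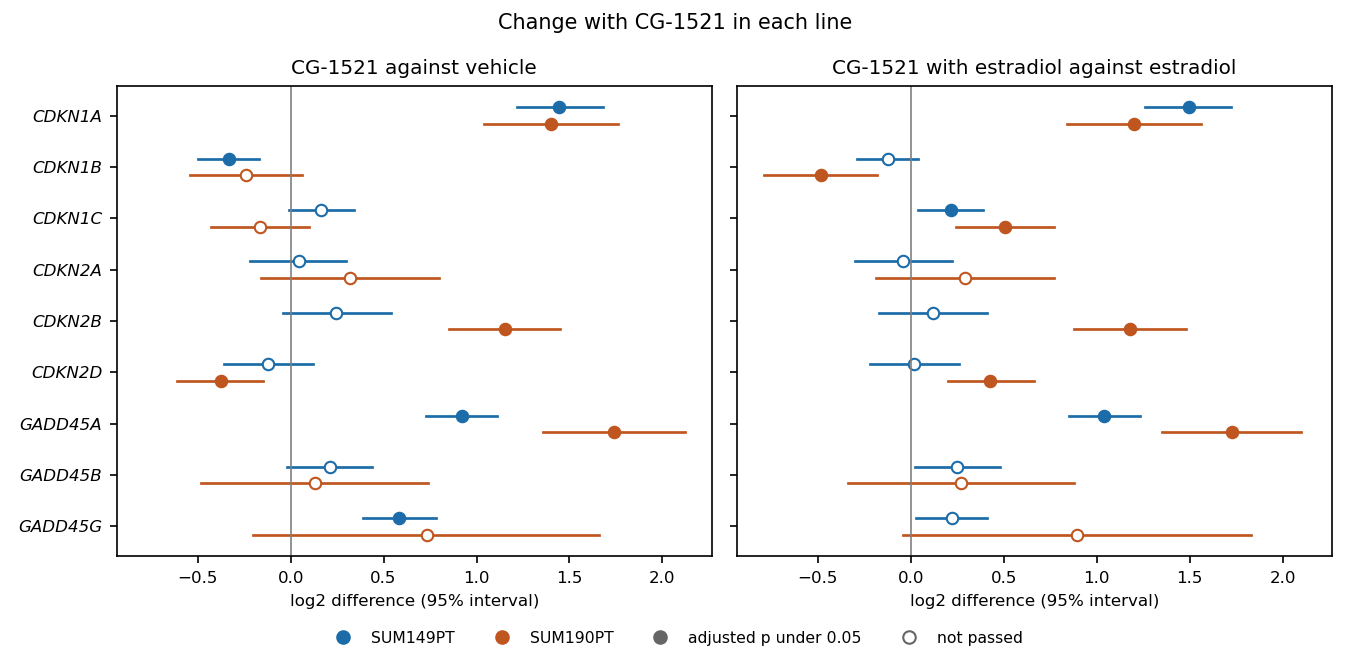
Log2 difference (x axis, point with its 95% interval) of each gene for CG-1521 against vehicle (left) and for CG-1521 with estradiol against estradiol (right), SUM149PT in blue and SUM190PT in orange; filled points passed at adjusted p under 0.05. CDKN1A and GADD45A are filled in both lines and both panels, CDKN2B in SUM190PT, and CDKN2D of SUM190PT lies at −0.38 on the left and 0.43 on the right.

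CDKN2A (chromosome 9) encodes the INK4 protein p16 and, from another start, the p53 regulator ARF. One probe set covers the gene, so its value does not separate these transcripts. It differed between the lines rather than with treatment: the 12 SUM149PT arrays lay between 5.66 and 6.25 and the 12 SUM190PT arrays between 6.98 and 8.005. No array of one line reached the other. In vehicle SUM149PT was 1.50 lower, as a difference of −1.50 (SE 0.189, adjusted p = 5.15e-07), a 2.83-fold difference. CG-1521 against vehicle gave 0.04 in SUM149PT (interval −0.22 to 0.30, adjusted p = 0.832) and 0.32 in SUM190PT (interval −0.16 to 0.80, adjusted p = 0.358). The 4 group means within a line overlapped their neighbours in order, from 7.64 with CG-1521 to 7.20 with estradiol in SUM190PT and from 5.98 with estradiol to 5.82 in vehicle in SUM149PT.

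CDKN2B, the neighbour of CDKN2A on chromosome 9, encodes p15, an INK4 protein known to be raised by TGF-beta. In SUM190PT its vehicle arrays read 6.49, 6.71 and 6.83, its estradiol arrays 6.44, 6.45 and 6.61, its CG-1521 arrays 7.78, 7.63 and 8.08, and its combination arrays 7.60, 7.58 and 7.85. Arrays with and without CG-1521 stood apart. The rise was 1.15 (SE 0.138, adjusted p = 0.000203), or 2.22-fold, and 1.18 with estradiol present (adjusted p = 0.000147), and without the arrays that stood apart 1.23 (0.0003) and 1.24 (0.000186). In SUM149PT the vehicle arrays read 6.09, 5.94 and 5.88, the estradiol arrays 6.38, 5.76 and 6.08, the CG-1521 arrays 6.15, 6.45 and 6.05, and the combination arrays 6.16, 6.12 and 6.30. The combination arrays lay just above the vehicle arrays (0.22, adjusted p = 0.226) and the other pairs of groups overlapped, and CG-1521 against vehicle gave 0.25 (interval −0.04 to 0.54, adjusted p = 0.193). The test of the difference itself, SUM149PT minus SUM190PT in their response to CG-1521, gave −0.91 for CDKN2B (SE 0.204, adjusted p = 0.00285), at different doses and media.

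CDKN2D (chromosome 19), which encodes p19, showed in SUM190PT a pattern in which each agent alone went with a low level and both together did not. The vehicle arrays read 7.37, 7.30 and 7.14, the estradiol arrays 6.96, 6.70 and 6.82, the CG-1521 arrays 6.91, 6.94 and 6.84, and the combination arrays 7.26, 7.18 and 7.33. The vehicle and combination arrays overlapped, the estradiol and CG-1521 arrays overlapped, and the 2 pairs of groups lay apart. CDKN2D fell by 0.38 with CG-1521 (SE 0.106, adjusted p = 0.0297), and with estradiol present it rose by 0.43 (adjusted p = 0.0125). Without the arrays that stood apart these were −0.44 (adjusted p = 0.0236) and 0.42 (0.0216). The fall missed the threshold with only the groups compared (adjusted p = 0.0778), with median centring (−0.29, 0.076), and without the first (0.0775) or the second (0.0888) vehicle array or the first (0.0843) or the third (0.0925) CG-1521 array, and the rise without the second estradiol array (0.0614). In SUM149PT the 12 arrays lay between 7.38 and 7.88, and CG-1521 against vehicle gave −0.12 (interval −0.36 to 0.12, adjusted p = 0.47).

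GADD45A (chromosome 1), the family member best known as a DNA damage response gene, had the largest change of the 9 genes in SUM190PT and the second largest in SUM149PT. Its SUM149PT vehicle arrays read 8.38, 8.38 and 8.43, its estradiol arrays 8.23, 8.20 and 8.31, its CG-1521 arrays 9.26, 9.18 and 9.52, and its combination arrays 9.26, 9.23 and 9.37. All 6 arrays with CG-1521 lay above the 6 without it. GADD45A rose by 0.92 (SE 0.089, adjusted p = 6.47e-07), or 1.89-fold, and by 1.04 with estradiol present (adjusted p = 1.76e-07). In SUM190PT the vehicle arrays read 7.90, 7.80 and 7.92, the estradiol arrays 7.75, 7.63 and 8.05, the CG-1521 arrays 9.91, 9.29 and 9.63, and the combination arrays 9.82, 9.29 and 9.49. Again no array with CG-1521 overlapped one without it. The rise was 1.74 (SE 0.175, adjusted p = 7.07e-05), or 3.34-fold, and 1.73 with estradiol present (adjusted p = 6.03e-05), and without the arrays that stood apart 1.76 (0.00015) and 1.85 (7.73e-05). The difference between the lines in this response was −0.82 (SUM149PT minus SUM190PT, SE 0.201, adjusted p = 0.00556). The 4 CG-1521 groups followed each other in the order of levels, from 9.61 to 9.28, each overlapping the next, and lay apart from the SUM149PT vehicle mean of 8.40.

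GADD45B (chromosome 19), an early stress gene of the same family, passed in none of the comparisons with CG-1521 in either line. Its SUM149PT arrays lay between 7.12 and 7.85 and its SUM190PT arrays between 7.91 and 9.13. No array of one line reached the other. CG-1521 against vehicle gave 0.21 in SUM149PT (interval −0.02 to 0.44, adjusted p = 0.15) and 0.13 in SUM190PT (interval −0.48 to 0.74, adjusted p = 0.795). The SUM149PT value passed after quantile normalization (0.31, adjusted p = 0.0339) and without the second CG-1521 array (0.31, adjusted p = 0.0436). With estradiol present it was 0.25 (adjusted p = 0.0838), which passed after quantile normalization (0.36, 0.0142) and without the dimmest 50% of genes (0.0478).

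GADD45G, the family member on chromosome 9, rose in SUM149PT. Its vehicle arrays there read 5.58, 5.31 and 5.63, its estradiol arrays 5.74, 5.60 and 5.59, its CG-1521 arrays 6.03, 6.18 and 6.06, and its combination arrays 5.86, 5.91 and 5.83. The CG-1521 arrays were the highest of the line, the combination arrays came next, and neither overlapped the arrays without CG-1521. The rise was 0.58 for CG-1521 (SE 0.091, adjusted p = 9.2e-05; 0.236 with all 24 arrays in the fit) and 0.36 for the combination over vehicle (adjusted p = 0.00503; 0.473 with all 24 arrays). Against estradiol, the combination gave 0.22 (adjusted p = 0.0712). In SUM190PT the vehicle arrays read 6.74, 6.60 and 8.11, the estradiol arrays 6.43, 6.40 and 7.90, the CG-1521 arrays 8.22, 8.02 and 7.41, and the combination arrays 8.08, 7.88 and 7.44. The third vehicle and estradiol arrays, which stood apart, read 1.44 and 1.48 above the mean of the other arrays of their groups and lay within the range of the CG-1521 groups. CG-1521 against vehicle was 0.73 (SE 0.431, adjusted p = 0.271) with them and 1.21 (adjusted p = 0.0034) without both, and the combination against estradiol was 0.90 (adjusted p = 0.139) with them and 1.39 (adjusted p = 0.0011) without both. Leaving out the third vehicle array alone gave 1.21 (adjusted p = 0.0569) for the first of these, and leaving out the third estradiol array alone gave 1.39 (adjusted p = 0.0193) for the second, which also passed with all 24 arrays in the fit (0.0382). The combination against vehicle was 0.66 (adjusted p = 0.385) with both arrays and 1.13 (adjusted p = 0.00544) without them.

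The third arrays were the highest of their group in both vehicle and estradiol for 6 of the 9 genes (CDKN1A, CDKN1B, CDKN2B, GADD45A, GADD45B and GADD45G) and the lowest in both for CDKN2A. For CDKN1A they were 0.16 and 0.34 above the mean of the other arrays of the group, and for GADD45A 0.08 and 0.36, and the CG-1521 arrays of these genes lay above them. The proliferation medians of the SUM190PT arrays with CG-1521 were 6.01, 7.36 and 6.55 for CG-1521 and 5.92, 7.16 and 6.37 for the combination, the second of each group being level with the third vehicle and estradiol arrays. On those 4 arrays of like proliferation level, CDKN1A was 7.85 and 7.62 with CG-1521 against 6.77 and 6.95 without it, and GADD45A was 9.29 and 9.29 against 7.92 and 8.05. GADD45G was 8.02 and 7.88 against 8.11 and 7.90, with no such gap. The part of proliferation in these levels was not tested.

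**Figure D3:**
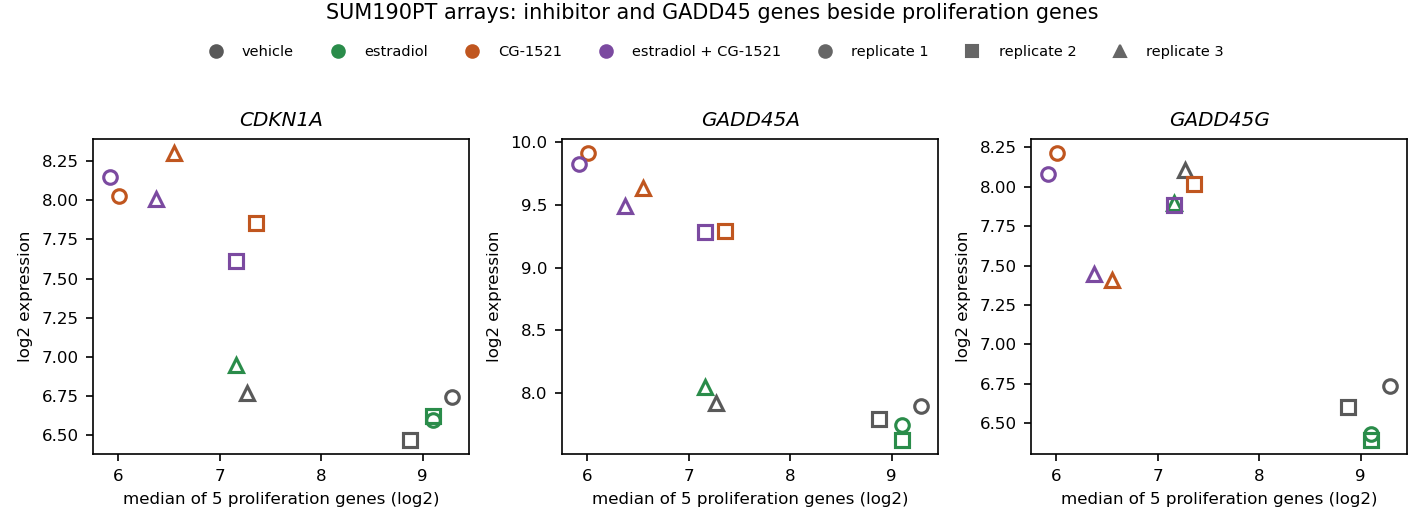
Log2 expression of CDKN1A, GADD45A and GADD45G (y axes, which differ) on the 12 SUM190PT arrays against the median log2 level of MKI67, TOP2A, CCNA2, MCM2 and TYMS (x axis); colours mark groups and symbols replicates. The third vehicle and estradiol arrays (triangles near 7.2) sit low for CDKN1A and GADD45A and among the CG-1521 arrays for GADD45G, where the third estradiol triangle lies inside the second combination square.

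Estradiol alone changed none of the 9 genes by the adjusted test. In SUM149PT 0 of 9 passed in limma, as did 0% of all genes, and 0 of 9 were under an unadjusted p of 0.05, where 845 genes (4.59%) were. The SUM149PT estradiol differences ran from −0.15 for GADD45A to 0.15 for CDKN2A, with adjusted p of 0.998 or more, and the arrays of 3 of 9 genes did not overlap, where those of 10.2% of all genes did not. In SUM190PT 0 of 9 passed, where 0.00543% of genes did (1 gene), and 2 of 9 had an unadjusted p under 0.05, where 24.6% of genes had. These were CDKN1C, with a difference of −0.50 (SE 0.123, adjusted p = 0.0583), and CDKN2D, with −0.44 (SE 0.106, adjusted p = 0.0573). For both genes all 3 estradiol arrays lay below all 3 vehicle arrays, as the arrays of 28.4% of all genes did not overlap in this comparison. Both passed with all 24 arrays in the fit (adjusted p = 0.00484 and 0.0129) and without the first vehicle array (−0.60, 0.0176 and −0.39, 0.0498). Without the arrays that stood apart they were −0.53 (adjusted p = 0.171) and −0.50 (0.17). Added to CG-1521, estradiol gave 0 of 9 in limma in either line, where 0% of genes passed. Under an unadjusted p of 0.05 lay GADD45G in SUM149PT (−0.22, where 6.28% of genes did) and CDKN2D in SUM190PT (0.36, where 4.83% did).

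Whether the response to CG-1521 depended on estradiol was tested by the interaction of both agents. In SUM190PT 1 of 9 genes passed, CDKN2D at 0.80 (SE 0.150, interval 0.48 to 1.13, adjusted p = 0.0476), where 0.516% of genes passed (95 genes). CDKN1C gave 0.67 (SE 0.174, adjusted p = 0.072). The CDKN2D value lay between 0.69 and 0.87 in every alternative fit, but its adjusted p missed the threshold with the replicate number as a block (0.0509), after quantile normalization (0.0678), with median centring (0.0672), without the dimmest 50% of genes (0.0682), without the pair of arrays that stood apart (0.0892), and in 11 of the 12 fits that left out 1 array, where it reached 0.142. Without the first vehicle array both genes passed, CDKN1C at 0.76 (adjusted p = 0.0249), as both did with all 24 arrays in the fit. In SUM149PT 0 of 9 passed in limma, where 0% of genes did, and 1 of 9 had an unadjusted p under 0.05, GADD45G at −0.36 (adjusted p = 0.795), where 5.68% of genes had.

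**Figure D4:**
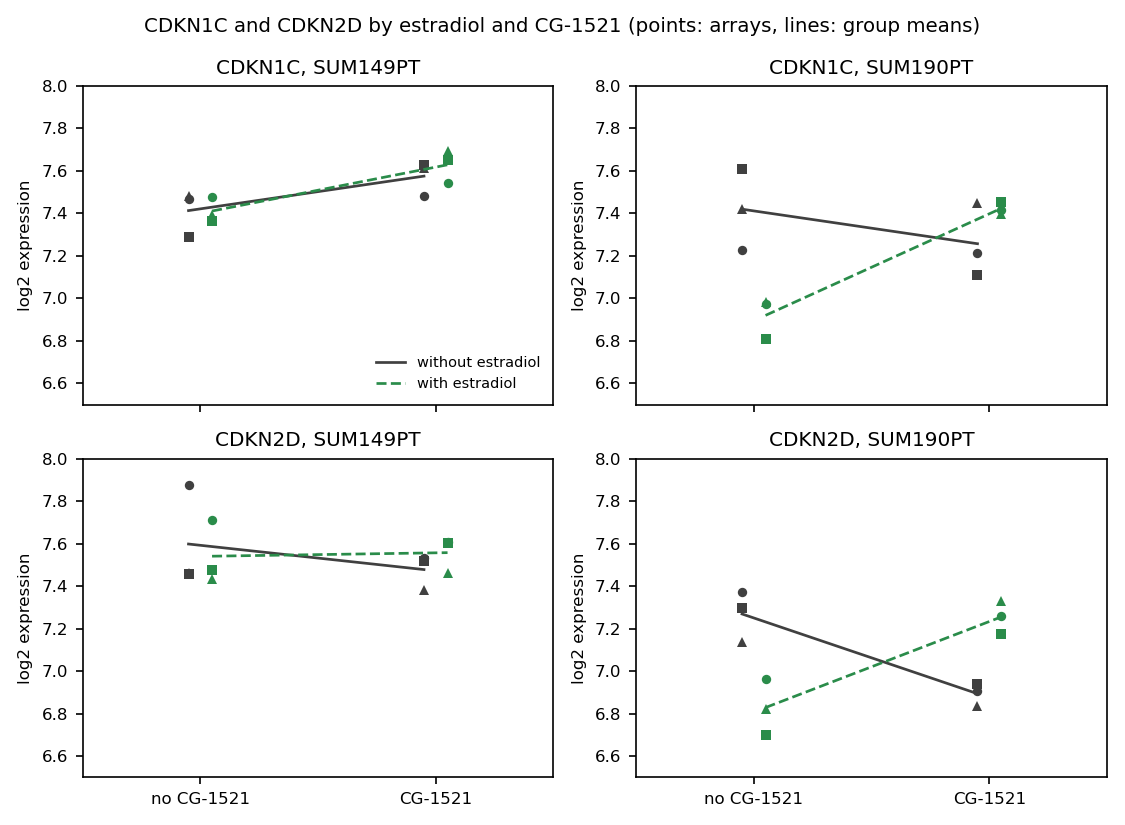
Log2 expression (y axis) of CDKN1C (top) and CDKN2D (bottom) in SUM149PT (left) and SUM190PT (right), without and with CG-1521 (x axis), grey without estradiol and green with it; points are arrays, symbols replicates and lines join group means. In SUM190PT the lines cross for both genes, CDKN2D falling from 7.27 to 6.89 without estradiol and rising from 6.83 to 7.26 with it.

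The levels of most of these genes in vehicle differed between the lines. SUM149PT was kept in serum and SUM190PT was not, so line and medium, and under CG-1521 also dose, cannot be told apart in such differences. In vehicle 7 of 9 passed, 3 higher and 4 lower in SUM149PT, where 46.7% of all genes passed (24.5% higher, 22.1% lower). Lower in SUM149PT beside CDKN2A were GADD45G (−1.64, SE 0.333, adjusted p = 0.000236; −1.16 without the SUM190PT arrays that stood apart), GADD45B (−0.81, adjusted p = 0.00451) and CDKN2B (−0.71, adjusted p = 0.000245). Higher in SUM149PT were GADD45A (0.53, adjusted p = 0.0036), CDKN1A (0.36, adjusted p = 0.049) and CDKN2D (0.33, adjusted p = 0.0171). The CDKN1A call was lost after quantile normalization (adjusted p = 0.065), with median centring (0.0639), with only the groups compared (0.0744), and without the second (0.182) or the third (0.152) SUM149PT or the first (0.0517) or the second (0.209) SUM190PT vehicle array. The CDKN2D call was lost with only the groups compared (0.0913) and without the first SUM149PT (0.19, adjusted p = 0.168) or the third SUM190PT vehicle array (0.0895), and without both SUM190PT arrays that stood apart (0.26, adjusted p = 0.0915). The vehicle arrays of 6 of 9 genes did not overlap between the lines, where those of 52.3% of genes did not. CDKN1B and CDKN1C differed by −0.18 (adjusted p = 0.22) and −0.01 (interval −0.22 to 0.21).

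Under CG-1521 7 of 9 differed between the lines, where 47.6% of genes did (with median centring 41.3% of the calls over all genes were higher in SUM149PT, in place of 52.6%). CDKN2B now differed by −1.61 (adjusted p = 2.85e-09), CDKN2A by −1.77 (4.81e-08), GADD45G by −1.79 (9.48e-05), GADD45B by −0.73 (0.0101), CDKN2D by 0.59 (0.000114), CDKN1A by 0.40 (0.0267) and CDKN1C by 0.32 (0.0127). The last 2 missed the threshold with median centring (0.105 and 0.0864), CDKN1A also without the first (0.122) or the third (0.0506) SUM149PT or the first (0.0679) or the second (0.136) SUM190PT array with CG-1521, and CDKN1C without the second SUM190PT array (0.0771). GADD45B missed it without the second SUM149PT (0.0508) or the third SUM190PT array (0.0714). GADD45A, higher in SUM149PT in vehicle, was now −0.29 (adjusted p = 0.0977; −0.39 and 0.0323 with median centring, −0.39 and 0.0467 without the third SUM149PT array, −0.45 and 0.0115 without the second SUM190PT array). CDKN1B was −0.27 (adjusted p = 0.0538; 0.01 with median centring, 0.0385 without the dimmest 50% of genes, 0.0393 without the arrays that stood apart, 0.0233 without the third SUM190PT array). The responses themselves differed for 2 of 9, CDKN2B and GADD45A as given above, where those of 20.6% of genes did (with median centring 30.0% of these calls were higher, in place of 43.7%). The CDKN1A responses differed by 0.04, with an interval of −0.38 to 0.47. CDKN1C gave 0.33 (adjusted p = 0.118), which passed without the first vehicle (0.0327) or the third CG-1521 array (0.0441) of SUM190PT.

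Genes of the same pathways were read from lists, beside which stand the shares of all genes that passed for CG-1521 against vehicle: 14.4% higher and 19.9% lower in SUM149PT, and 8.32% higher and 8.26% lower in SUM190PT. The list of CDK inhibitor partners and substrates held cyclins, kinases, pocket proteins, PCNA and E2F1. With CG-1521, 12 of its 16 genes were lower in SUM149PT and 5 of 16 in SUM190PT, with none higher. Their median differences were −0.77 and −0.49. The median residual SD over all genes was 0.119 in SUM149PT and 0.171 in SUM190PT, so counts that passed do not compare the sizes of change between the lines. CCNA2, the cyclin of S phase, was −2.03 and −1.59, CCNB1, the mitotic cyclin, −1.91 and −1.81, and CDK1, its kinase, −1.85 and −1.90 (SUM149PT, then SUM190PT). CCNE2, which acts at entry into S phase, fell by 1.54 in SUM149PT, and CCND1, a partner of CDK4, fell by 0.64 in SUM190PT. The 5 proliferation genes, of which CCNA2 is also in that list, passed as lower for 5 of 5 in SUM149PT (median −2.02) and 3 of 5 in SUM190PT (median −1.59).

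Of 20 measured p53 target genes other than CDKN1A and GADD45A, 6 were higher and 8 lower in SUM149PT (median 0.08), and 1 was higher in SUM190PT (median −0.02). SESN2, a stress-induced sestrin, rose in SUM149PT by 1.12 and PHLDA3, a repressor of AKT, by 0.71, while DDB2, which recognises UV damage, fell by 1.10 and POLH, a translesion polymerase, fell by 0.77. In SUM190PT the gene that passed was AEN, a nuclease, at 0.83 (adjusted p = 0.00282). AEN was among the genes lower in SUM149PT (−0.34, adjusted p = 0.0339). CDKN1A and GADD45A, also p53 targets, rose in both lines.

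Of 16 measured transcription factors reported at CDKN1A or GADD45 promoters, 3 were higher and 8 lower in SUM149PT (median −0.27), and 5 were higher and 1 lower in SUM190PT (median 0.17). ATF3, a stress-induced factor, rose in both lines, by 0.85 and 2.70, and EGR1, an immediate early factor, fell in both (−0.89 and −1.16). BRCA1 (−1.19) and SMAD3 (−0.98), the mediator of TGF-beta signals, fell in SUM149PT. KLF6 rose in both lines (0.51 in SUM149PT and 0.96 in SUM190PT), while MYC fell in SUM149PT (−0.35) and rose in SUM190PT (0.72). Of 11 genes for the turnover of CDK inhibitor proteins, 6 were lower in SUM149PT (median −0.43), and 3 were lower and 1 higher in SUM190PT (median −0.12). CDC20, an activator of the anaphase ubiquitin ligase, was −1.90 and −2.04, and CKS1B, which helps SKP2 recognise p27, −0.83 and −1.18. SKP2 itself fell by 1.47 in SUM149PT and DTL, an adaptor for p21 degradation, fell by 1.20, while FBXW7, a substrate adaptor of a cullin ligase, rose in SUM190PT by 0.57 and DDB1, another ligase subunit, fell by 0.51. The arrays measure RNA, so protein levels of the inhibitors were not measured.

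Of 9 measured GADD45 partners, 6 were lower in SUM149PT (median −0.44) and 1 in SUM190PT (median −0.08). MAP2K6, a kinase of the p38 pathway, fell in both lines (−1.82 and −1.93). MAP3K4, the kinase GADD45 proteins activate, fell in SUM149PT (−0.74), as did the base excision repair enzymes APEX1 (−0.83) and TDG (−0.51). Of 5 genes next to CDKN2A and CDKN2B on chromosome 9, none passed for CG-1521 against vehicle in either line. Between the lines in vehicle, MTAP, the purine salvage gene beside CDKN2A, was lower in SUM149PT (−2.29, adjusted p = 1.4e-10), as was ELAVL2 (−0.35), and KLHL9 was higher (1.06). Of 3 measured genes near CDKN1C on chromosome 11, PHLDA2, an imprinted growth regulator, rose by 0.98 and NAP1L4, a histone chaperone, fell by 0.41 in SUM149PT, and none passed in SUM190PT.

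**Figure D5:**
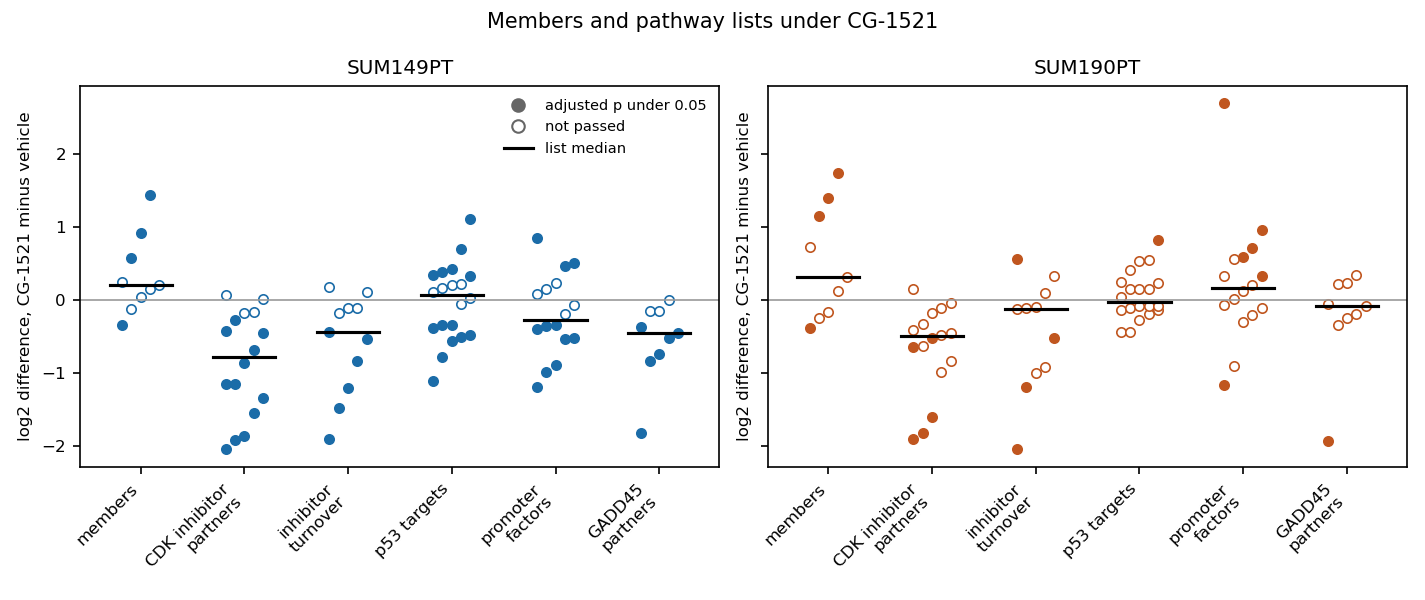
Log2 difference, CG-1521 minus vehicle (y axis), of each gene in the 9 CDK inhibitor and GADD45 genes and in 5 pathway lists (x axis), SUM149PT left and SUM190PT right; filled points passed at adjusted p under 0.05 and bars mark list medians. The list of CDK inhibitor partners has medians of −0.77 and −0.49, below those of the 9 genes at 0.21 and 0.32.

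The genes with the most similar patterns were found by correlation over the 24 arrays after each line's mean was subtracted. All these values rest on the same arrays and treatment groups and serve as a description. The closest to CDKN1A were CDCP1, a membrane glycoprotein (r = 0.978), ATOSB (0.974) and PHF1, a chromatin reader (0.972). The closest to GADD45A were MAP1B, a microtubule protein (0.988), PPP1R15A, a regulator of the integrated stress response (0.984), and ZFAND2A, a stress-induced zinc finger gene (0.981). CDKN2B was closest to PPIF, a mitochondrial cyclophilin (0.948), IRF1, an interferon-induced factor (0.94), and CRYAB, a small heat shock protein (0.939), which within SUM149PT alone fell to 0.766, 0.297 and 0.498. GADD45G was closest to SLC3A2, an amino acid transporter subunit (0.922), NFE2L1, a stress-response factor (0.918), and CLCN7, a lysosomal chloride transporter (0.898). Within SUM149PT alone these were 0.83, 0.762 and 0.664. CDKN1B was closest to RFXAP (0.92), SRD5A1 (0.911) and ARFIP1 (0.905), and CDKN2D to BGN (0.861), PIDD1 (0.836) and KCNG2 (0.811). Within SUM149PT alone the CDKN1B values were 0.887, 0.872 and 0.793, and those of CDKN2D 0.798, 0.755 and 0.653. Those of CDKN1A and GADD45A stayed at 0.977 to 0.988 there.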

How the data were processed

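RNA levels come from 24 arrays of the type Affymetrix Human Gene 1.0 ST. The deposited values are log2 expression after RMA in Affymetrix Expression Console, per the submitters' processing notes, which give no version; a joint normalization of the lines is not given in the sources used here. Of 33297 probe sets, 19460 carried 1 gene symbol in the platform annotation, 1754 several and 12083 none; 19429 matched a RefSeq gene. For each of 18417 genes the brightest such probe set by mean was kept, with no filter on low values, and all 9 genes described lay above the median gene by their mean over the 24 arrays of both lines. The SUM149PT group means of CDKN2A (5.82 to 5.98) and GADD45G (5.51 to 6.09) were below that median gene's 6.13. Those of CDKN2B were below it in vehicle (5.97) and estradiol (6.07).

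Tests used limma 3.58.1 (R 4.3.3; lmFit and eBayes, two-sided, Benjamini-Hochberg adjustment over all genes), over the 12 arrays of a line or, between lines, over all 24. Tables and figures used Python 3.11.15 with pandas 2.3.3, numpy 2.4.6 and matplotlib 3.10.9. On simulated data the fit for CG-1521 against vehicle recovered, in SUM149PT, 98% of log2 changes of 1 and 59% of those of 0.5. In SUM190PT it recovered 76% and 22%. The simulation changed 100 genes by each size, whereas in the data 34.3% of all genes passed in SUM149PT and 16.6% in SUM190PT. Its adjusted threshold was therefore stricter, and these shares do not give the recovery in the data. Arrays give no read depth, and 3 per group limit the precision.

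All 9 genes are named. From each pathway list up to 4 genes are named by size of change among those that passed for CG-1521 against vehicle. None passed among the genes next to CDKN2A and CDKN2B, and those named there passed between the lines in vehicle. For each of the 9 genes that passed for CG-1521 against vehicle in at least 1 line, the 3 genes of highest correlation are named. Symbols of unnamed loci, small RNAs and olfactory receptors were left out of these. The genes, lists and alternatives were chosen with earlier results of these data known. Alternatives were the replicate number as a block, fits of only the groups compared, within-line comparisons in a fit of all 24 arrays, quantile normalization, median centring, averaging of probe sets per gene, removal of the dimmest 50% of genes, and leaving out each array, or both arrays numbered 3 in SUM190PT vehicle and estradiol. No source says that replicate numbers mark shared experiments. Deviations of same-numbered arrays correlated above 0.1 in all 3 pairs for SUM190PT estradiol against vehicle (0.443, 0.229 and 0.729) and combination against CG-1521 (0.518, 0.434 and 0.502), and not in the other comparisons.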

Additional observations from a re-analysis of the deposited data

Results flagged for a closer look

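In 3 instances an effect differed between groups by the test of the difference itself. The response to CG-1521 was smaller in SUM149PT than in SUM190PT for CDKN2B, by −0.905 on the log2 scale (SE 0.204, adjusted p = 0.00285; 0.25 against 1.15), and for GADD45A, by −0.817 (SE 0.201, adjusted p = 0.00556; 0.92 against 1.74). Both passed in all 12 fits that left out 1 array, with adjusted p of at most 0.0113 and 0.0199. Line, dose and medium cannot be told apart in these differences. In SUM190PT the change of CDKN2D with CG-1521 was 0.802 higher with estradiol than without it (SE 0.150, adjusted p = 0.0476), which passed in 1 of the 12 fits that left out 1 array.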

How the results depend on the processing

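Of 135 gene and comparison pairs 41 passed, and 27 of these passed under every alternative run. Among them were CDKN1A and GADD45A in every within-line comparison of a group given CG-1521 with a group not given it. CDKN2B was among them in every such comparison in SUM190PT. No passing value changed its direction. Removal of the dimmest 50% of genes dropped none of the 9 genes, as CDKN2A and GADD45G stayed in through their SUM190PT level. CDKN2B also stayed in, though it lay below the median gene's 6.13 in SUM149PT vehicle (5.97) and estradiol (6.07). Its means in the other groups were above that value. The removal is therefore no check on the low SUM149PT levels of CDKN2A, CDKN2B and GADD45G. With the replicate number as a block 39 of the 41 calls were kept. CDKN1C for the combination against estradiol in SUM149PT (adjusted p = 0.0588) and the CDKN2D interaction in SUM190PT (0.0509) were lost, and none was gained. The block was shared by all groups of a fit. It therefore does not model a pairing held only within SUM190PT vehicle and estradiol, or within its CG-1521 and combination groups.

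Counts of the 9 genes moved by over 1.5 times as follows. For the combination against estradiol in SUM149PT the count was 5 without the dimmest 50% of genes, in place of 3; 1 of the calls gained is GADD45G, which stayed among the brighter genes through its SUM190PT level, as its SUM149PT group means (5.51 to 6.09) lie below the median gene's 6.13. For the combination against vehicle in SUM149PT it was 2 with all 24 arrays, in place of 4. For estradiol against vehicle in SUM190PT it was 2 with all 24 arrays, in place of 0. For the SUM190PT interaction, in place of 1, it was 2 with all 24 arrays and 0 with the replicate number as a block, after quantile normalization, with median centring, without the dimmest 50% of genes, and without the third vehicle and estradiol arrays. Leaving out 1 array gave 3 to 6 for the combination against estradiol in SUM190PT (3 without the second estradiol array), 0 to 2 for estradiol against vehicle there and 0 to 2 for the interaction (2 without the first vehicle array in each). Over all genes, the interaction in SUM190PT was passed by 95 genes, 72.6% of them higher, against 5 after quantile normalization (0% higher), 10 with median centring (10% higher) and 1 without the dimmest 50% of genes; the cause was not tested. With 3 arrays a group, the number of arrays limits which small changes can pass.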
